A study of Mus musculus with 8 samples.

Results

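Long late replicating domains are stretches of 2 Mb or more that replicate late along their whole length. They were defined on the autosomes from a table of replication timing scores, in which a higher score means earlier replication. The mean of the 4 profiles was taken in 50-kb bins with at least 3 measured windows, and successive bins below -0.5 were joined into runs that do not cross a gap of more than 200 kb. Runs spanning 2 Mb or more were kept. This gave 105 domains with 5496 bins, of 42710 bins measured over all chromosomes (12.9%) and 41018 on the autosomes (13.4%). The domains cover 297 Mb and hold 27.8% of the 19799 late autosomal bins. The scores that chose them are therefore given as a description, and only differences between groups were tested.

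The cells were mouse embryonic stem cells of the E14Tg2a line and its subclones grown with leukemia inhibitory factor, in which CTCF is fused to an auxin-inducible degron. The auxin group was kept for 2 days in medium with 500 µM indole-3-acetic acid, which targets the tagged CTCF for degradation, and the control group received none; both groups carry the degron. After a BrdU pulse of 2 hours, cells of early and of late S phase were separated by DNA content and the labelled DNA of each fraction was sequenced, so that 8 libraries make 4 profiles, 2 per group. Nothing in the labels says whether the replicates came from separate cultures, which subclone was used, or how many, so p-values measure the spread between these profiles only, which may be technical. Cells given auxin without a degron were not analysed here, and no file measures CTCF protein. Read depth is unknown because the table holds no counts.

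In mammalian cells, DNA is copied in large blocks that fire together. Early blocks are rich in active genes and open chromatin, and late blocks are largely at the nuclear lamina, are poor in active genes and often carry long tissue-specific genes or receptor gene clusters. CTCF binds insulator sites and, together with cohesin, holds the bases of chromatin loops. CpG-rich gene starts (CpG islands) are typical of housekeeping and developmental genes and are often accessible, also where the surrounding chromatin is closed.

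Gene starts were of different kinds inside the domains. The following sequences, from RefSeq on GRCm38.p6 (the coordinates of mm10), show 250 bases before to 50 bases after a gene start, with every CpG in capitals. Smad9, Arrdc3 and Sim1 lie in stretches that replicated later with auxin, Akr1c19 is a gene with a large decrease and a CpG-poor start, Gnai1 is a gene with one of the largest increases, and Olfr1018 is an odorant receptor gene. Smad9 (chr3:54755332-54755631, plus strand, 31 CpG) encodes a SMAD protein of bone morphogenetic protein signalling. Arrdc3 (chr13:80883134-80883433, plus strand, 35 CpG) encodes an arrestin-domain protein. Sim1 (chr10:50895401-50895700, plus strand, 13 CpG) encodes a transcription factor of hypothalamic development. Akr1c19 (chr13:4233490-4233789, plus strand, 1 CpG) encodes an aldo-keto reductase. Gnai1 (chr5:18360364-18360663, minus strand, 53 CpG) encodes an inhibitory G protein alpha subunit. Olfr1018 stands at chr2:85822723-85823022 (plus strand, 1 CpG).
Smad9: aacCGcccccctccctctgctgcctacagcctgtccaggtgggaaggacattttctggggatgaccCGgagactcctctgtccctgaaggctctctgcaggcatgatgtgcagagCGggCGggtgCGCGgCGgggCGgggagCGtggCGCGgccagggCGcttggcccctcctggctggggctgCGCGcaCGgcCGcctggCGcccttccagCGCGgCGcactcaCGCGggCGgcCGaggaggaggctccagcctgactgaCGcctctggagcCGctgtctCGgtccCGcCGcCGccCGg
Arrdc3: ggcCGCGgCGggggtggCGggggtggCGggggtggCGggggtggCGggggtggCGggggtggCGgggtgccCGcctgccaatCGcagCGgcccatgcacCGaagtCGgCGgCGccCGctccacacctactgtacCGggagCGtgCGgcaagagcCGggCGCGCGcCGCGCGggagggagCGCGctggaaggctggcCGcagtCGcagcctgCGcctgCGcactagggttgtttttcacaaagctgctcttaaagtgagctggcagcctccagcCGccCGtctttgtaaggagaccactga
Sim1: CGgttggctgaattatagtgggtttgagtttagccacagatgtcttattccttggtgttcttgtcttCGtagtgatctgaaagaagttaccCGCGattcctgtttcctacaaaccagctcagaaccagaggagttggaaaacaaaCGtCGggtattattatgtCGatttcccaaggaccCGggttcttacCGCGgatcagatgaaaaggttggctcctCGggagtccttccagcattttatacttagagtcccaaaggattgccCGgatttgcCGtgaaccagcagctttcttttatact
Akr1c19: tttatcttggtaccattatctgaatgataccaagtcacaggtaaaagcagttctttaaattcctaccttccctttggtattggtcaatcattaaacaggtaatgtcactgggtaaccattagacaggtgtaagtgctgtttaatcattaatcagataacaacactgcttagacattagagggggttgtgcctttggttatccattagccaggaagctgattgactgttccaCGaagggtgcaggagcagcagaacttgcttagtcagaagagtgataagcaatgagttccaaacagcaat
Gnai1: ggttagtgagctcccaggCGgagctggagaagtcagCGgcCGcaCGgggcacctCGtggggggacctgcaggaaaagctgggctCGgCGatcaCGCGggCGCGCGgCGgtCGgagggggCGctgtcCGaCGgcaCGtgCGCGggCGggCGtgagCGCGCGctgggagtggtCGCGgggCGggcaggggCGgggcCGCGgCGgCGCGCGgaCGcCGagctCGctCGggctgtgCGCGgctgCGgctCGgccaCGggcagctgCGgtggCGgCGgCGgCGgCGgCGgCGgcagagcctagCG
Olfr1018: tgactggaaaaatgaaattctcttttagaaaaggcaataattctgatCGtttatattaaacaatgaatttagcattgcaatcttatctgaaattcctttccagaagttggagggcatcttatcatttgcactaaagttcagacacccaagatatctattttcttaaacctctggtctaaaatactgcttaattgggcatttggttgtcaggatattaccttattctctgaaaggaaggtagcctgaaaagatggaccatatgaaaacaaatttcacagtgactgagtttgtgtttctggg

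The sequences differ most in CpG content. A start was called CpG-rich with at least 15 CpG in these 300 bases, so Smad9, Arrdc3 and Gnai1 are CpG-rich and the printed Sim1 start falls just under the limit. Inside the domains, 1266 starts of 1105 protein-coding genes had a sequence, and 27.4% of these genes had a CpG-rich start. The share was 61.9% in long early domains (runs above 0.5 of 2 Mb or more), 51.5% over all autosomal genes and 28.1% in late bins outside the domains. None of the 328 odorant receptor genes with a sequence had a CpG-rich start, and without them the share in the domains was 39.0%. The letters TATAAA on either strand were found in 25.4% of starts in the domains, 7.83% of those in long early domains and 12.7% of all. In late bins outside the domains the share was 22.5%. Without odorant receptor genes it was 19.3% in the domains. The letters AGGGGGC on either strand, which resemble part of the CTCF motif, were found in 6.56% of starts in the domains. Their share was 15.5% in long early domains, 13.1% of all and 8.19% in late bins outside the domains. Without odorant receptor genes it was 8.43% in the domains. These shares describe the letters in the windows and not binding.

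The domains spanned 2 to 5.25 Mb with a median of 2.75 Mb. Of the 105, 38 spanned 3 Mb or more and 8 spanned 4 Mb or more. Of the 5940 bins within their spans, 444 (7.47%) held too few windows and were left out. Chromosomes 1 and 2 held 10 domains each, and the share of kept bins in domains was highest on chromosome 9 (20.1%) and lowest on chromosomes 5 (4.11%) and 19 (5.14%). Just outside the length rule were 12 late runs of 1.95 Mb. Examples are chr10:25750001-27700000, with a mean score of -1.90, and chr14:22050001-24000000, with -2.49. Just inside were 10 domains of 2 Mb, such as chr2:110150001-112150000 with -2.39 and chr13:88100001-90100000 with -2.17, so that runs on both sides of the rule had scores in the same range.

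Domain mean scores ranged from -2.80 to -1.34 with a median of -2.25. Bins within one domain differed more from each other than the domains did. The median SD of bins within a domain was 0.710, and the SD of domain means was 0.245. Longer domains were not later by these values (across 105 domains, Pearson's r of span and mean score was 0.080 and Spearman's rho 0.109). The domains come from the same 4 profiles and are not independent samples. The longest was chr13:76300001-81550000 (5.25 Mb), which holds Mctp1, a calcium-binding membrane protein gene, and Adgrv1, an adhesion receptor gene of hair cells and photoreceptors. It was followed by chr3:58800001-63800000 (5 Mb, with Med12l, Plch1 and Mbnl1), chr1:172700001-177650000 (4.95 Mb, with Rgs7, Fmn2 and Pld5), chr10:34550001-39050000 (4.5 Mb, with Hs3st5, Lama4 and Hdac2) and chr17:49050001-53300000 (4.25 Mb, with Tbc1d5, Kcnh8 and Kif6). The lowest means belonged to chr11:46500001-48600000 (-2.80), which holds the muscle sarcoglycan gene Sgcd, to chr9:27400001-30500000 (-2.74), with the neuronal adhesion genes Opcml and Ntm, and to chr12:87950001-90200000 (-2.73), with the presynaptic adhesion gene Nrxn3.

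Protein-coding genes were sparser in the domains than in long early domains. Their median length was 10.1 kb with odorant receptor genes included, against 15.2 kb in long early domains, but very long genes made up a larger share. At least 50% of the body of 1379 protein-coding genes lay inside, or 4.64 per Mb, against 20.3 per Mb in long early domains by the same rule. Counted instead by gene midpoint in kept bins, there were 3.97 per Mb in the other late bins and 9.51 per Mb over kept autosomal bins. Those densities leave out bins with too few windows, which the domains' spans include, so they are not a like comparison. Genes covered 35.4% of the domains' length and 61.1% of that of long early domains. Of the domains, 1 held no protein-coding gene and 25 held 1 to 5. The median was 8, and the highest count was 146. Genes over 200 kb made up 10.2% of genes in the domains and 1.48% of those in long early domains, and 14.9% of all 945 such autosomal genes lay in the domains, against 6.67% of all 20665 protein-coding genes. The longest were Macrod2 (an ADP-ribose hydrolase, 1998 kb), Nrxn3 (1612 kb), Fhit (a dinucleoside triphosphate hydrolase at a fragile site, 1612 kb), the neuronal splicing regulator Rbfox1 (1528 kb) and the potassium channel partner Dpp10 (1514 kb).

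Odorant receptor genes were the most frequent family of those listed. Of 1104 autosomal members, 396 (35.9%) lay inside 8 domains and made up 28.7% of the domains' protein-coding genes. The clusters with most members were on chr7:102650001-105450000 (116 receptor genes), chr2:85150001-87450000 (98) and chr9:37750001-39900000 (80). Without receptors, 983 genes remained, or 3.31 per Mb, with a median length of 29.3 kb. Long neuronal adhesion and synapse genes were also frequent: 18 of 59 (30.5%) lay inside and 2 inside long early domains. Of GABA-A receptor subunit genes, 4 of 14 lay inside. Of glutamate receptor genes 4 of 26 did (Gria4, Grid1, Grik1 and Grik2), and of voltage-gated potassium channel genes 3 of 29. Of cytochrome P450 genes, 8 of 99 did, which were the Cyp2j cluster on chromosome 4 and Cyp7a1, the rate-limiting enzyme of bile acid synthesis.

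The remaining lists held between 0 and 4 genes each. No member of the vomeronasal receptors (of 352), the serpins (of 62), the prolactin family (of 26), the UDP glucuronosyltransferases (of 22), the classical and type II cadherins (of 18) or the non-clustered protocadherins (of 10) lay inside. Neither did any of 20 core pluripotency genes, 29 replication licensing and fork genes, or 12 CTCF and cohesin genes, of which 9, 14 and 4 lay inside long early domains. Of Zfp zinc finger genes 3 of 360 lay inside, of bitter taste receptors 4 of 35, of beta defensins 2 of 42, of proteasome subunits 3 of 38, and of 76 cytosolic ribosomal protein genes only the retrocopy Rpl10l. Of 22 leucine-rich repeat synaptic organisers only Flrt3 did, and of 28 lineage transcription factors Foxa2, of endoderm, and Neurod1, of neurons and endocrine cells.

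The first comparison asks whether the bins of the domains replicated at another time with auxin. The median score over the 5496 bins was -2.38 and -2.39 in the auxin profiles and -2.35 and -2.30 in the control profiles. Both auxin profiles were lower than both controls, with a mean difference of -0.0635 (-2.39 ± 0.00776 against -2.32 ± 0.0375, SD, n = 2 each). In the 14303 late bins outside the domains, the medians were -2.14 and -2.15 with auxin and -2.16 and -2.17 without, so the difference there was 0.0239. The domains' median minus that of the other late bins was -0.246 and -0.243 with auxin and -0.190 and -0.124 without. An exact permutation test of 2 against 2 profiles cannot give a two-sided p below 0.333, which is what each of these differences had. The scores were quantile normalized, which gives every profile the same distribution, so that a lower median in one class goes with a higher score elsewhere. In 107 long early domains the medians were 2.83 and 2.83 with auxin against 2.76 and 2.76.

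Single bins seldom passed the test. By limma fitted over all 42710 bins, 63 bins of the domains were called later (1.15%, adjusted p under 0.05) against 1.02% of all bins, and 9 were called earlier (0.164%) against 0.637%. Over both directions 1.31% of member bins and 1.66% of all bins were called. Both shares are small, and the later one is near the background. The auxin profiles lay below both controls in 1596 bins (29.0%, against 26.1% of all bins) and above both in 1016 bins (18.5%, against 26.4%). Per bin, the median difference was -0.0605, with quartiles of -0.333 and 0.189, and 56.9% of bins were lower with auxin. With each profile left out in turn, the calls fell from 72 to between 0 and 7: none was left without auxin replicate 1, auxin replicate 2 or control replicate 2, and 7 without control replicate 1. With trended and robust variances limma called 90 bins earlier and 276 later, 6.66% of member bins in both directions. Of all bins, 5.17% were called earlier and 5.66% later (10.8% in both directions), so the member share was below the background.

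The calls fell in short stretches. The 63 later bins formed 40 runs in 30 domains and 3.15 Mb, and the 9 earlier bins formed 8 runs in 6 domains and 0.45 Mb. The longest later run spanned 300 kb at chr13:80850001-81150000, in the longest domain, over Arrdc3 and the end of Adgrv1. Its scores were -1.90 and -1.80 with auxin and -0.568 and -0.516 in control. In control this stretch stood out from the domain as a local peak of earlier replication, and in both auxin profiles the peak was lower. Its 6 bins had limma adjusted p-values between 0.0342 and 0.0417.

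The other 3 of the 4 longest later runs spanned 150 kb each. At chr15:66950001-67100000, which overlaps the stress-response gene Ndrg1, scores were -1.77 and -1.96 with auxin and -0.613 and -0.606 without. At chr10:50850001-51000000, over Sim1 and part of Ascc3 (a helicase subunit gene), they were -2.45 and -2.43 against -1.35 and -1.22. At chr12:118800001-118950000, over the transporter gene Abcb5 and the zinc finger gene Sp8, they were -2.003 and -1.87 against -0.827 and -0.912. Groups are apart in these runs because they were chosen as called. The runs lay 800 kb, 1100 kb and 900 kb from the nearer domain edge. The longest earlier run was the 100 kb at chr14:35300001-35400000 inside Grid1, a delta glutamate receptor gene of cerebellar synapses, with -1.83 and -2.01 with auxin and -3.12 and -3.21 without (limma adjusted p of 0.0359 and 0.0410 in its 2 bins).

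**Figure D1:**
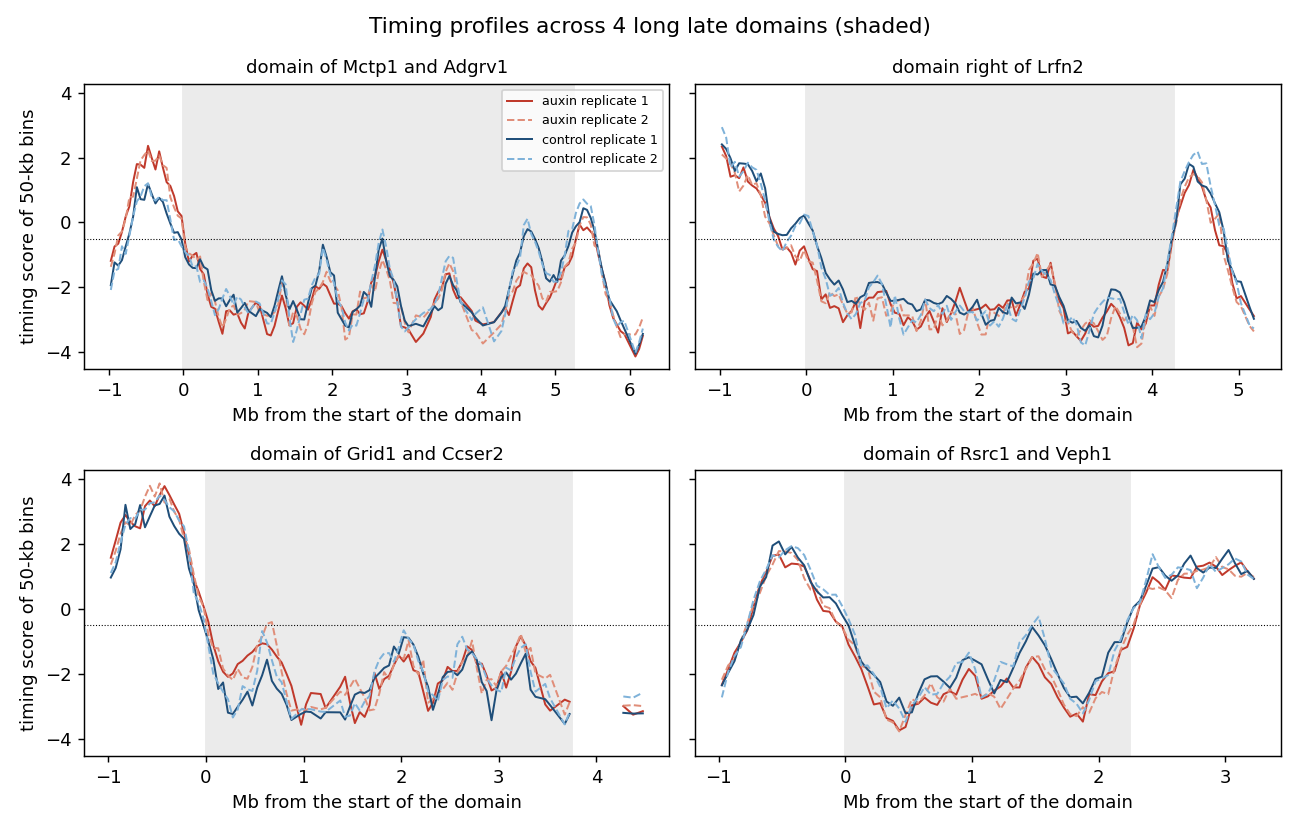
Timing scores of 50-kb bins (y axis) against distance in Mb from the start of the domain (x axis) in 4 domains, 1 line per profile, with the domain shaded and the level of -0.5 dotted; lines break at gaps of more than 200 kb. The auxin lines lie below the control lines at the Arrdc3 peak of the Mctp1 and Adgrv1 domain, where run means were -1.90 and -1.80 against -0.568 and -0.516, and above them within Grid1.

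At the scale of whole domains, 68 of 105 domain means were lower with auxin and 37 were higher. Both auxin profiles lay below both controls in 48 domains and above them in 20, and the groups overlapped in 37. Over all 3753 segments of one timing class, 31.7% had the auxin profiles below and 31.7% above. The median difference of the domains was -0.0817, with a range of -0.524 to 0.340. By limma over all segments, 3 domains passed and all 3 were later (2.86%), against 10.2% of segments called later and 9.78% called earlier (19.9% in both directions). Of the 326 segments of any class with at least 31 kept bins, the number in the smallest domain, 3.99% were called, which is near the domains' share. With trended and robust variances, 25 domains were later and 5 earlier (28.6% in both directions). Of all segments, 15.1% were later and 13.5% earlier (28.5% in both directions). Without any one of the 4 profiles, none of the 105 passed. The difference of a domain was only weakly related to its genes per Mb (across the 105, Pearson's r was -0.058 and Spearman's rho -0.283, as a description).

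**Figure D2:**
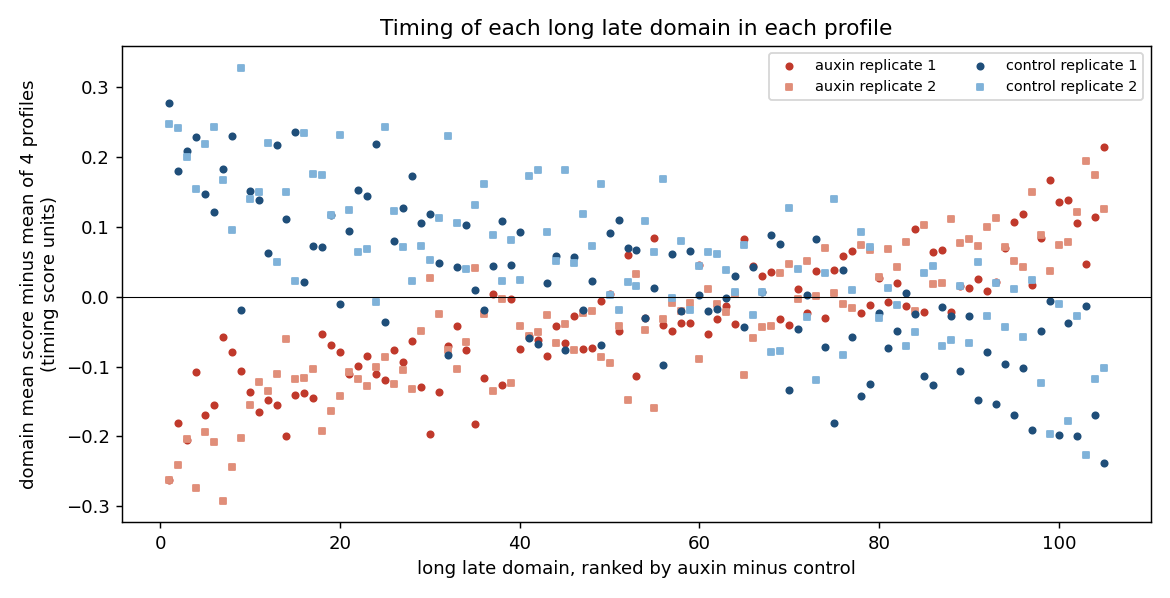
Mean score of each of the 105 domains in each profile, minus the mean of the 4 profiles (y axis, score units), with domains ranked by the auxin minus control difference (x axis). The differences run from -0.524 at the left to 0.340 at the right, and the order by difference itself places the groups apart at both ends.

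The domain at chr3:66000001-68250000 had the largest decrease. Its means were -2.47 and -2.47 with auxin and -1.93 and -1.96 in control, a difference of -0.524 ± 0.105 (SE; limma adjusted p = 0.0218). It holds the splicing factor gene Rsrc1, where scores were -2.38 and -2.67 against -1.94 and -1.96, with Veph1 and Iqcj. The domain at the start of the assembled chromosome 13, chr13:3000001-5400000, had -1.71 and -1.77 against -1.35 and -1.29 (difference -0.422 ± 0.107, limma adjusted p = 0.0393). It holds a cluster of aldo-keto reductase genes, which act on steroids and other carbonyls, and Tasor2. The domain chr5:97300001-99750000 had -2.74 and -2.74 against -2.33 and -2.34 (difference -0.408 ± 0.105, limma adjusted p = 0.0400). It holds the anthrax toxin receptor gene Antxr2, the cyclic GMP-dependent kinase gene Prkg2 and Cfap299.

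The next largest decrease, in chr2:147350001-149900000, did not pass (-2.41 and -2.58 against -2.08 and -2.15; limma adjusted p = 0.0654). Within it, Foxa2 was covered by 1 window with scores of -2.20 and -2.57 with auxin and -1.05 and -0.913 without. The largest difference in the other direction was in chr12:87950001-90200000, the Nrxn3 domain, with -2.52 and -2.61 against -2.97 and -2.84 (limma adjusted p = 0.0841). The domain with the atypical cadherin gene Fat3, chr9:15600001-18650000, had -2.09 and -2.03 against -2.37 and -2.32. The domain with Alk, a receptor tyrosine kinase gene, chr17:71950001-73950000, had -1.85 and -1.71 against -1.91 and -2.13. The Grid1 domain, chr14:35050001-38800000, had -2.03 and -2.01 against -2.33 and -2.16. None of these 4 passed the test over segments.

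The rule was also applied to each profile alone, to ask whether the domains take up the same length in both groups. It found 112 domains in each auxin profile, of 317.1 and 309.9 Mb in all, and 103 and 91 domains in the control profiles, of 285.4 and 247 Mb. Both auxin profiles had more and the groups did not overlap, but the controls differed from each other by nearly as much as from the auxin profiles. On group means the rule found 110 domains and 314.6 Mb with auxin and 98 domains and 269.9 Mb without, a difference of 44.7 Mb, which was 67.6 Mb without control replicate 1 and 29.2 Mb without control replicate 2. The group means shared 4556 bins, 78.1% of the auxin bins and 91.0% of the control bins. Of 1274 bins in domains on the auxin mean only, 1049 were already below -0.5 in control, in runs that were shorter there. The number of late autosomal bins hardly differed, with 19811 with auxin and 19759 without.

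**Figure D3:**
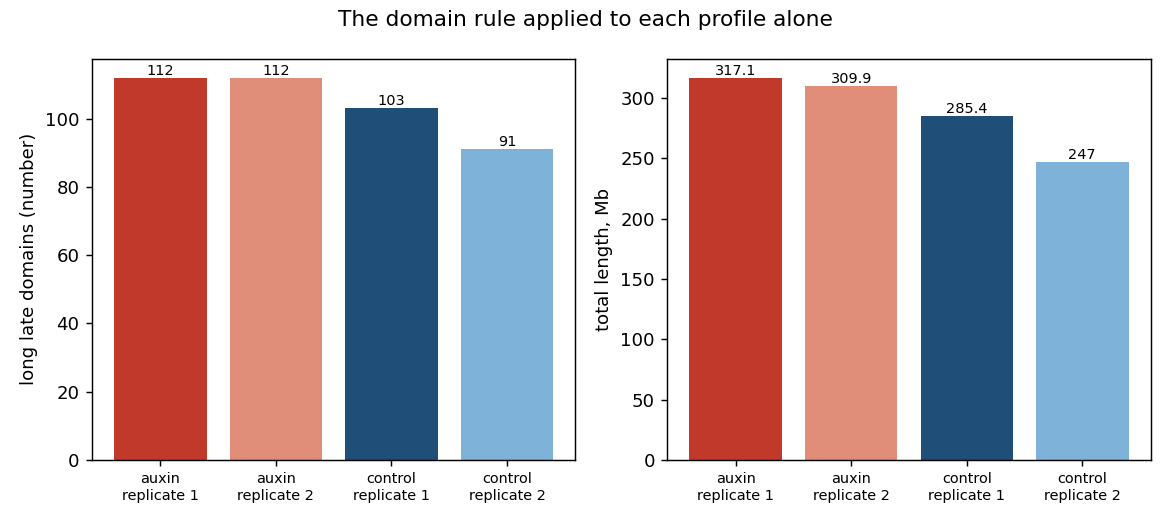
Number of long late domains (left, y axis) and their total length in Mb (right, y axis) when the rule is applied to each profile alone, 1 bar per profile with its value above it. Auxin profiles give 112 and 112 domains and control profiles 103 and 91.

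Of the member bins, 84 were at or above -0.5 on the control mean, in 46 domains, and 36 on the auxin mean, in 27 domains. In single profiles the numbers were 52 and 52 with auxin and 69 and 118 without, so control replicate 2 stood apart from the other 3 profiles. In the interior, 200 kb or more from an edge, they were 19 and 19 with auxin and 20 and 51 without, so only control replicate 2 differed there.

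The edges of the domains moved little. Of 210 edges, 165 were transitions, 44 lay at a gap and 1 at a chromosome end, and 153 crossed -0.5 within 500 kb in all 4 profiles. The median position, in kb outward from the crossing of the mean profile, was -1.41 and 5.44 with auxin and -3.84 and -4.54 without. The median shift per edge was 6.71 kb outward (13.3 kb without auxin replicate 1 and 10.4 kb without control replicate 1), which is less than 1 bin. With auxin 85 edges lay further out and 68 further in, and the groups were apart at 61 (39.9%) and 39 (25.5%). Edges of other segments were not measured, so these shares have no background. The median size of a shift, 27.7 kb, was larger than the median difference between control replicates (14.5 kb) and between auxin replicates (19.6 kb). Timing changed across the edges by a median of 7.52 and 7.52 score units per Mb with auxin and 7.90 and 8.59 without. The slope was lower in both auxin profiles than in both controls, with a mean difference of -0.721 per Mb, and of -0.374 without control replicate 2.

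A few edges moved by more than 100 kb. Their positions are given relative to the crossing of the mean profile, with positive values outward. The left edge of the domain that begins at chr2:65850001, beside the neuronal sodium channel gene Scn2a and Csrnp3, lay at 365 and 379 kb with auxin and at -92.1 and -108 kb without. The left edge of the 4.25-Mb domain at chr17:49050001, beside the synaptic adhesion gene Lrfn2, lay at 334 and 377 kb with auxin and at -83.4 and -83.5 kb without. The right edge of the 4.95-Mb domain at chr1:177650000, beside Adss, lay at 393 and 27.1 kb with auxin and at -47.0 and -43.7 kb without, so that its auxin replicates differed by more than the groups. The 3 largest inward shifts were as follows. The left edge at chr4:22300001, beside Fbxl4, a mitochondrial F-box gene, lay at -15.3 and -30.0 kb with auxin and at 144 and 170 kb without. The right edge at chr4:14850000, beside the calcium-binding gene Necab1, lay at -15.6 and -60.1 kb against 152 and 103 kb. The left edge of the Nrxn3 domain lay at -192 and -126 kb with auxin and at 328 and 62.9 kb without.

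Both the level of the scores and the size of the difference varied with distance from the edge. Median control scores fell from -0.830 and -0.813 in the outermost 50 kb to -2.53 and -2.56 between 300 and 500 kb. Deeper bins were slightly higher again in control, at -2.42 and -2.37 beyond 1 Mb, and stood at -2.44 and -2.45 there with auxin. The median auxin minus control difference per bin was -0.0120 within 200 kb of an edge (781 bins) and -0.0686 in the interior (4715 bins). It was between -0.0214 and -0.00321 in every class from 0 to 500 kb, -0.0553 from 500 to 750 kb, -0.126 from 750 to 1000 kb and -0.0794 beyond. Between 750 and 1000 kb, 62.3% of bins were lower with auxin.

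**Figure D4:**
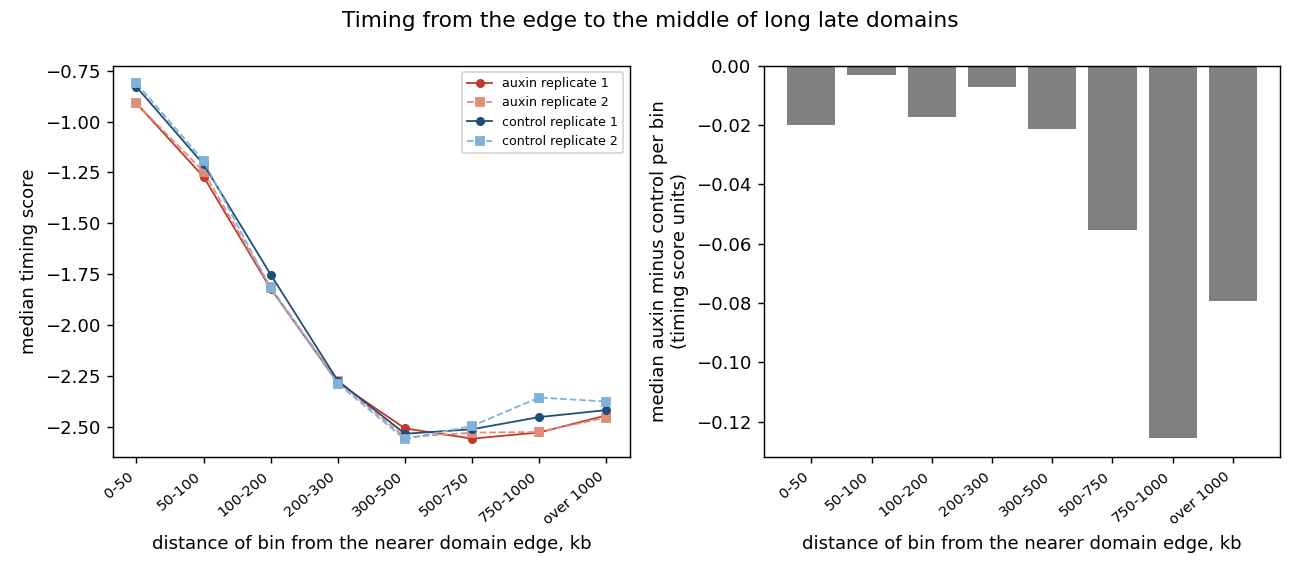
Left, median timing score of member bins in each profile (y axis) against distance from the nearer domain edge in kb (x axis, unequal classes). Right, median auxin minus control difference per bin in the same classes, as bars from 0; the bar is longest at 750 to 1000 kb, at -0.126.

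Within the domains the difference went with gene content. Interior bins (200 kb or more from the edge) with a CpG-rich gene start had median scores of -2.18 and -2.14 with auxin and -1.88 and -1.81 in control (228 bins in 74 domains). Bins with CpG-poor starts only had -2.47 and -2.54 against -2.42 and -2.34 (404 bins), and bins with a gene body but no start had -2.51 and -2.49 against -2.46 and -2.41 (1672 bins). Bins without a protein-coding gene had -2.49 and -2.51 against -2.49 and -2.47 (2411 bins). In control, bins with CpG-rich starts were thus earlier than bins without genes by 0.608 and 0.659, and with auxin by 0.308 and 0.362. The groups do not overlap, and the difference between them, -0.299, was larger than the spread between replicates (SD 0.0386 with auxin and 0.0359 in control, n = 2 each). The 2 against 2 profiles again allow no p below 0.333. This contrast was not among the comparisons first planned and was added on the same profiles.

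**Figure D5:**
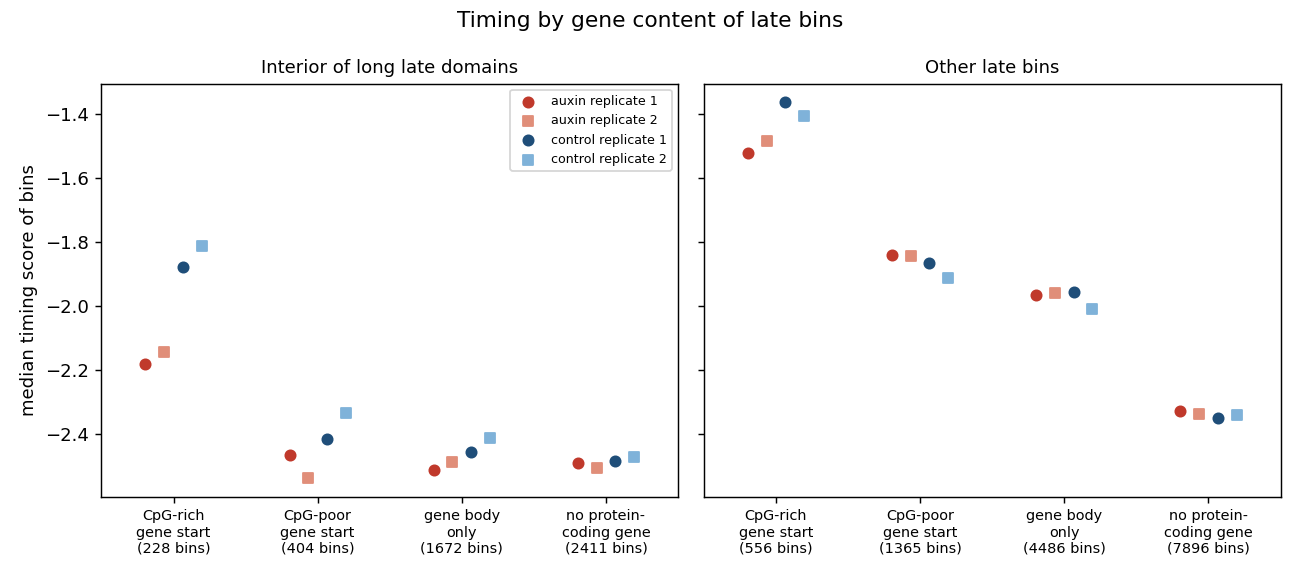
Median timing score (y axis) of late bins by gene content (x axis), 1 point per profile, in the interior of long late domains (left) and in late bins outside them (right). In the domains the control points lie above the auxin points at CpG-rich gene starts, -1.88 and -1.81 against -2.18 and -2.14, and all 4 points lie close together in bins without a gene.

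The call counts showed the same order. Of the 281 member bins with a CpG-rich start, interior or not, 12 were called later by limma (4.27%, against 1.02% of all bins) and 0 earlier (0.637% of all bins). Both auxin profiles lay below both controls in 116 of them (41.3%, against 26.1% of all bins) and above in 48 (17.1%, against 26.4%). These shares were similar in the 556 late bins with CpG-rich starts outside the domains, with 36.9% below and 18.3% above. Of those 556 bins, 8 were called later (1.44%) and 4 earlier (0.719%). Of 2796 member bins without a gene, 19 were later (0.680%) and 3 earlier. In late bins outside the domains, bins with CpG-rich starts had -1.52 and -1.48 with auxin and -1.36 and -1.41 without (556 bins). They were earlier than bins without a gene by 0.807 and 0.855 with auxin and by 0.989 and 0.937 without, so the group difference there was -0.132. The contrast in the domains minus that outside was -0.4996 and -0.492 with auxin and -0.380 and -0.277 in control. The difference of these values between groups was -0.167, with groups that do not overlap and the smallest possible exact p of 0.333. Bins with a CpG-rich start also had the highest median score of the 4 gene-content classes in the domains, and the part of score level in the result was not tested in one fit. By score alone, interior bins above -1.5 had a median difference of -0.102 and deeper ones of -0.0639. The gap between these classes (1.37 and 1.37 with auxin, 1.36 and 1.51 without) overlapped between groups. Of the 636 interior bins above -1.5, 19 were called later (2.99%) and 0 earlier, against 0.760% and 0.147% of deeper ones. Both auxin profiles lay below both controls in 38.7% of these 636 bins and above in 22.8%. Higher-scoring bins thus also had more later calls than all bins, whatever their gene content, and the 2 traits were not separated.

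Scores over gene bodies were available for 596 of the 1379 genes, those with at least 3 windows. No gene passed by limma over all 10674 such genes, where the background was also 0%; the smallest adjusted p among the domains' genes was 0.0566, and 143 had an unadjusted p under 0.05 (24.0%, against 23.3% of all). With trended and robust variances limma called 78 genes later and 5 earlier, against 7.69% and 4.27% of all genes. The auxin profiles lay below both controls for 260 genes (43.6%, against 30.3% of all genes) and above both for 93 (15.6%, against 24.5%). The median difference was -0.170, against -0.0265 over all genes. It was -0.0643 for the 141 genes over 200 kb and -0.202 for the 455 shorter ones, of which 75 were among the 78 called later with trended variances.

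The genes with the largest decreases had groups far apart, and most were short. Smad9 had scores of -1.97 and -2.07 with auxin and -0.477 and -0.585 in control, a difference of -1.49 (limma adjusted p = 0.0566). Gabrr3, a rho subunit of the GABA-A receptor family, had -1.99 and -1.68 against -0.707 and -0.161. Its neighbour Riox2, a ribosomal oxygenase gene, had -1.61 and -1.36 against -0.576 and 0.204. Akr1c19 had -1.89 and -2.43 against -0.913 and -0.699 over 3 windows. Insig2, which retains sterol sensors in the endoplasmic reticulum, had -3.07 and -2.47 against -1.29 and -1.63. Map9, a microtubule-associated protein gene of the spindle, had -2.60 and -2.87 against -1.25 and -1.67. In all 6 genes both controls lay above both auxin profiles, which the choice of these genes required, and none passed the test.

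The 6 largest increases were smaller than the 6 largest decreases. Mmp1b, a collagenase gene of a metalloproteinase cluster, had scores of -0.668 and -0.863 with auxin and -1.56 and -1.86 in control, a difference of 0.941 (limma adjusted p = 0.0644). Gnai1 had -1.31 and -1.24 against -1.97 and -2.02. Its neighbour Gnat3, the taste G protein alpha subunit gene, had -1.24 and -1.33 against -1.88 and -2.0. Grid1 had -0.651 and -0.752 against -1.45 and -1.34. Its body begins at chr14:34820003, before the domain's start at 35050001, so the score includes windows outside the domain. Emc2, a subunit of the endoplasmic reticulum membrane insertase, had -2.09 and -1.81 against -3.32 and -2.29. The 9 windows of A26c3 gave -2.44 and -2.55 against -3.65 and -2.60. For Emc2 and A26c3, control replicate 1 lay far from control replicate 2, and the group difference was smaller than the gap between the controls. None of these genes passed either.

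Among the listed gene groups, no member passed by limma. Of the 18 long neuronal adhesion and synapse genes, 7 had both auxin profiles below both controls and 6 above (against 30.3% and 24.5% of all genes), 0 passed by limma and the median difference was -0.00318. Among them, the axon guidance receptor gene Robo1 had -1.92 and -1.95 with auxin and -1.46 and -1.33 without, while Grid1 lay the other way. Of the 3 potassium channel genes, Kcnq5 had -3.26 and -3.10 against -2.67 and -2.80 and Kcnh8 had -3.20 and -3.17 against -2.79 and -2.83. Of the 6 cytochrome P450 genes with 3 or more windows, 4 had both auxin profiles lower (against 30.3% of all genes), such as Cyp2j13 with -0.695 and -1.06 against -0.584 and -0.322. None of these passed by limma.

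Odorant receptor genes were hard to measure. Only 3 of the 396 had 3 windows or more, and 61 had any. Among the 8 domains that hold them, 2 had both auxin profiles above both controls, 3 had both below and the groups overlapped in 3, against 31.7% of all segments in each direction. The chr7:102650001-105450000 cluster had domain means of -2.19 and -2.19 with auxin and -2.36 and -2.31 without, and the chr9:37750001-39900000 cluster had -2.30 and -2.40 against -2.22 and -1.87.

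The authors' deposited table of regions that moved from early to late lists 63 regions. Of these, 6 lay at least 50% inside the domains and 8 touched one. For scale, the domains hold 13.4% of the kept autosomal bins. Whether the listed regions lie in the domains more or less often than other regions was not tested. The list was made from the same profiles, so its overlap with the domains is not independent evidence. None of the 22 regions in the authors' deposited table of late-to-early regions touched a domain. The 6 regions, in the authors' deposited table, hold Cep85l and Pln, Arrdc3, Adgrv1, St3gal1, Lrfn2, and Smad9 with Alg5 and Rfxap. Of these, the region with Pln, the cardiac calcium pump inhibitor gene, at chr10:53256000-53388000 had scores of -2.08 and -2.25 with auxin and -1.08 and -1.08 without in the authors' deposited table. Of the 6, 5 lay more than 400 kb inside their domain, and the Lrfn2 region lay at its edge.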

How the data were processed

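The 8 Repli-seq libraries make 4 timing profiles, 2 with auxin and 2 control, and no other columns were used. The tools were Bowtie2, SAMtools and bedtools and the build mm10, per the submitters' processing notes; versions, filters and how early and late libraries were joined into one value are not stated in the labels. The authors deposited a quantile-normalized timing score per window of a 6-kb grid (316864 windows), per the file headers. Sorted, the 4 columns are identical, so the score shows relative timing only, and its log base is unknown. The authors deposited lists of regions with a q-value each, from a test the files do not describe; only positions and scores of these lists were used.

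Window scores were averaged into 50-kb bins; 5370 of 48080 (11.2%) had fewer than 3 windows and were left out. Bins, segments of one timing class and gene bodies (3 windows or more) were tested with limma 3.58.1 in R 4.3.3 (lmFit, eBayes, treatment only, 2 residual degrees of freedom), Benjamini-Hochberg adjusted over each whole table at 0.05. Gene and promoter positions are RefSeq's for GRCm38.p6. Replicate numbers share only a number: the correlation of replicate deviations between groups was 0.038. Near-identical genes can share reads.

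The members, lists, tests and alternatives were chosen with earlier results of these data known. Genes were named by rule: in the longest, lowest, most shifted or called domains and the longest called runs, the 3 longest genes; the 5 longest genes; the 6 with the largest shift in each direction with groups apart; and the 2 largest shifts of each list. The text prints a selection of these, and 1 item that the rule names is not reported here.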

Additional observations from a re-analysis of the deposited data

How the results depend on the processing

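With each profile left out in turn, called bins ranged from 0 to 7, called domains from 0 to 0, called genes from 0 to 0, the median difference from -0.0870 to -0.0545, the length difference from 29.2 to 67.6 Mb, the edge shift from 5.33 to 13.3 kb, the slope difference from -1.07 to -0.374 and the CpG-rich contrast from -0.326 to -0.271. Of 72 called bins, limma gave 366 with trended and robust variances, 251 with the replicate block, 243 with at least 6 windows per bin, 19 with window medians, 0 with all bins fitted and 0 at an adjusted p of 0.01. Level and length rules gave 47 of 4354 bins below -0.75 (1.08%) and 109 of 6639 below -0.25 (1.64%). They gave 173 of 13591 bins in runs of 1 Mb (1.27%) and 37 of 2538 in runs of 3 Mb (1.46%). Over all bins the share was 1.66%. Later calls outnumbered earlier ones in each setting with calls. At an unadjusted p under 0.05, 1081 bins differed in the main setting (19.7%, against 21.7% of all bins). The trended calls were 6.66% of member bins, against 10.8% of all bins. For the replicate block, the 6-window rule and window medians, no share over all bins is given. Called domains were 30 with trended variances, 3 with the replicate block and 0 at 0.01; called genes were 83 with trended variances and 0 with the replicate block. The number of domains was 425 at 1 Mb, 38 at 3 Mb and 180 with gaps of 500 kb bridged, where the length difference was 68.8 Mb. In runs of 1 Mb the median difference was -0.0313. The CpG-rich contrast was itself added to the first plan, and its alternatives were chosen after seeing the data. They gave -0.2498 with at least 10 CpG, -0.261 over all member bins and -0.363 at 500 kb or more from the edges. With domains called on control profiles alone, also chosen after seeing the data, the contrast was -0.311 and the median difference was -0.0418. No direction reversed in any of these settings. Where values moved, the cause was not tested. Depth is unknown, so no interval could be set on counts.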
